A study of Rattus norvegicus with 4 samples.

Results

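Axon guidance ligands and receptors are the secreted and membrane proteins that steer growing axons: semaphorins with their plexin and neuropilin receptors, ephrins with Eph receptors, netrins with Dcc and Unc5 receptors, and Slits with Robo receptors. They were followed here in the adult rat brain. The members were the genes whose symbols belong to these families (Sema, Plxn, Nrp1, Nrp2, Efna, Efnb, Epha, Ephb, Ntn1, Ntn3, Ntn4, Ntng1, Ntng2, Dcc, Unc5, Slit, Robo1 to Robo3). Each was taken by its symbol, but the list was made with earlier results of these data known. Of 69 such symbols in RefSeq, 54 were named on the array, among 15437 named genes in all. The other 15 (Efna3, Epha10, Epha6, Epha8, Ephb3, Plxna1, Plxna4, Plxnb1, Plxnc1, Plxnd1, Robo3, Sema3f, Sema5b, Sema6a and Unc5d) were not analysed here. Unc50 and Unc5cl, whose symbols begin with Unc5 but which are no netrin receptors, were left out.

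Male rats gave RNA of 2 brain regions, cerebellum and prefrontal cortex, which was labelled with Cy3 and bound to gene probes on 1-colour Agilent arrays. Of 106 normal rats scored for immobility in the forced swimming test, some with depressive-like behaviour formed the depressive group and some with average scores the control group. Both groups swam, no drug or lesion is named in the labels, and strain and age were not given in the sources used here. RNA of 4 rats was pooled in equal amounts per group and tissue, giving 4 groups with 1 array each: depressive cerebellum, control cerebellum, depressive prefrontal cortex and control prefrontal cortex. The cerebellum came from slices 9.8 to 10.8 mm behind the bregma and the prefrontal cortex from slices 3.2 to 4.2 mm in front of it, taken 1 week after the test.

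The scanner files that the records link to the depressive cerebellum and control prefrontal cortex samples match each other's column of the deposited value table. In that table each column matched a single scanner file at a correlation of 0.99994 or more across probes, whereas these linked files reached 0.933 with their own column. The table was followed, which the names of the files also bear out, and values for the files as linked stand beside the first counts. All 4 arrays lie on 1 slide, and 22204 to 23759 of 30367 probes were well above background per array. The tissue labels were checked with marker lists. All 13 cerebellum markers tested were higher in cerebellum, with a median log2 difference of 5.46, and Pcp2, a Purkinje cell gene, was 284-fold higher. Of 11 cerebral cortex markers tested, 9 were lower in cerebellum, and Neurod2 and Nr4a2 were higher there.

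As background, Slits bound by Robo receptors mainly repel axons. Netrin-1 attracts axons through Dcc and can repel them where an Unc5 receptor takes part. Ephrins are held in the membrane of one cell and bind Eph receptor tyrosine kinases on the next, and class 3 semaphorins are secreted and act through neuropilins and plexins. In the adult brain many of these genes stay active and are known for roles at synapses and in blood vessels.

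Promoters of 3 members at the ends of the tissue difference are printed to show the sequence next to the start sites of the genes concerned. Ntng1 and Unc5b had the highest cerebellum over prefrontal cortex ratios, and Ephb6 had the second lowest after Slit1. Each window runs from 250 bases before to 50 after the start in RefSeq's GRCr8: chr2:200514982-200515281 on the minus strand for Ntng1, chr20:29307221-29307520 on the minus strand for Unc5b, and chr4:71458382-71458681 on the plus strand for Ephb6. Capitals mark the E-box letters CAGNTG, or CANCTG when read from the other strand, a motif of basic helix-loop-helix factors.
Ntng1: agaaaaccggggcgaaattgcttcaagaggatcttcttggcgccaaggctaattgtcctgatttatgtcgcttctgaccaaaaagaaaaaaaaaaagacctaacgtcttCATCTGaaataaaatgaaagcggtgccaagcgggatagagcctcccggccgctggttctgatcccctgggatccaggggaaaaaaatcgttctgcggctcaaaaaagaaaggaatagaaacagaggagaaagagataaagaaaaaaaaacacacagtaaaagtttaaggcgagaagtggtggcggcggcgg
Unc5b: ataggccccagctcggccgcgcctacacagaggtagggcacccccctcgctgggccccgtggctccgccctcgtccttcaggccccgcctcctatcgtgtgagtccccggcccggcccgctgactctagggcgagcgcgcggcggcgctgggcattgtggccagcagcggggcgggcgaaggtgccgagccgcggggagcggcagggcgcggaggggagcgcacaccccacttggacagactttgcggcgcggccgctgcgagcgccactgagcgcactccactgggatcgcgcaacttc
Ephb6: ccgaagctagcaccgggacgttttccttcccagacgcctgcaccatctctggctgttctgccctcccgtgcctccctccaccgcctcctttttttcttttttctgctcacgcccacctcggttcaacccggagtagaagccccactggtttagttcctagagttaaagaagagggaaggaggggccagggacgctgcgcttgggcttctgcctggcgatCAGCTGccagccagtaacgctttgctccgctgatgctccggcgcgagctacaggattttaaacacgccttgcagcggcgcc
The Ntng1 and Ephb6 windows hold 1 such motif each and the Unc5b window holds 0. The motif was present in 5 of 9 promoters of members called higher in cerebellum (55.6%), in 8 of 24 promoters of members called lower (33.3%), in 17 of 44 promoters of members in all (38.6%) and in 16806 of 33465 rat promoters (50.2%). The Ntng1, Unc5b and Ephb6 windows hold 15, 37 and 20 CpG dinucleotides, against a median of 7 over all promoters. The median was 16 over the members' promoters, 19 for members called higher and 17 for members called lower in cerebellum. A match in these letters is a description and not a bound site.

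Between the tissues, most members differed, and more of them were lower in cerebellum than higher. Slit1, a secreted repellent, was 22.7-fold lower in cerebellum, Ephb6, an Eph receptor that lacks kinase activity, 19.1-fold lower, and Epha4, a receptor for both ephrin classes, 11.3-fold lower. Ntng1, the membrane-anchored netrin-G1, was 5.24-fold higher, and Unc5b, a netrin receptor, 5.15-fold higher. A limma fit of tissue with state as a covariate called 42 of 47 members at an adjusted p under 0.05, 12 higher and 30 lower in cerebellum, where 72.8% of the 11611 genes fitted were called (34.8% higher and 38% lower). The 30 lower include Sema4b and Sema6c, whose second probes were higher in cerebellum, and the split was 14 higher and 28 lower with the mean over a gene's probes. The members' median log2 difference was -0.53, against -0.02 over all genes fitted. The pools of the 2 states stood in as the 2 samples of a tissue, which leaves 1 residual degree of freedom. With state in the fit, that residual is how far the tissue difference changed between the 2 states. The fit moderated it with a prior from all genes fitted, worth 2.41 degrees of freedom. The p-values therefore do not measure the spread between rats. With scanner files as the records link them, 0 of 47 members were called.

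At 2-fold or more in the same direction in both states were 26 of 50 members (6 higher and 20 lower), where 20.8% of 12536 genes were (8% higher and 12.8% lower). All 47 fitted members were well above background on all 4 arrays, 4 more (Efna5, Ntn1, Ntn3 and Sema3d) on some and 3 (Epha1, Nrp2 and Ntng2) on none, so that no ratio was formed for those 3. Of the 47, 46 differed in the same direction in both states. The exception was Efna2, whose second probe was higher in cerebellum in both states. In such bulk samples, fewer cells of a type and less RNA per cell cannot be told apart. Marker lists of other cell types differed between the tissues too: 7 of 7 choroid plexus markers tested and 11 of 12 meningeal markers were called higher in cerebellum, and 11 of 12 microglial markers were called lower. Oligodendrocyte markers were called higher for 8 of 12, and astrocyte markers higher for 4 and lower for 4 of 9. Endothelial and mural markers were called lower for 8 and higher for 2 of 12, and blood cell markers lower for 6 of 6. Their part in the members' differences was not tested.

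**Figure D1:**
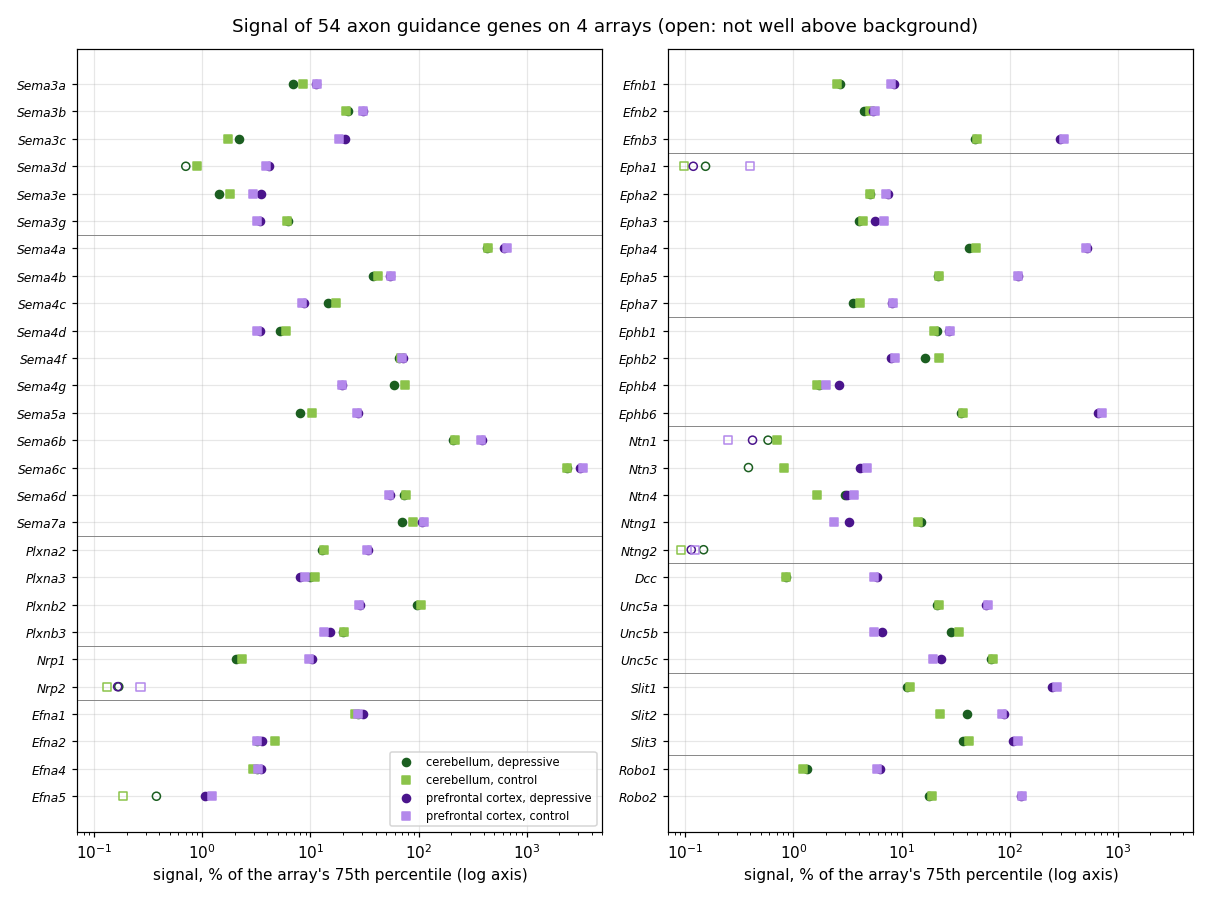
Signal of the 54 members on the 4 arrays, 1 point per array, as percent of the array's 75th percentile on a log axis. Open points were not well above background, and horizontal lines part the families. Slit1, Ephb6 and Epha4 show the widest distance between the cerebellum points (green) and the prefrontal cortex points (purple), and points of the 2 states lie close together for most genes.

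Values per array are given as percent of that array's 75th percentile of signal and compare arrays for 1 probe, not probes with each other. All 3 Slits and both Robos measured were lower in cerebellum. Slit1 gave 11.1% and 11.9% on the depressive and control cerebellum arrays, against 246% and 276% on the depressive and control prefrontal cortex arrays, a log2 difference of -4.50 ± 0.05 (SE of the fit, adjusted p = 0.000168, limma). Both cerebellum values lay far below both cortex values. Slit3 gave 36.7% and 41.6% in depressive and control cerebellum, against 107.3% and 120.4% in depressive and control prefrontal cortex, 2.91-fold lower (adjusted p = 0.000396, limma). Slit2 gave 39.9% and 22.6% in depressive and control cerebellum, against 87.6% and 85.1% in depressive and control prefrontal cortex, 2.87-fold lower (adjusted p = 0.00772, limma). For Slit2 the 2 cerebellum values were apart from each other, though both were under the cortex values, and the gap was 2.19-fold between the depressive pools and 3.76-fold between the control pools.

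Robo2, a Slit receptor, gave 17.8% and 19.1% in depressive and control cerebellum, against 128% and 129% in depressive and control prefrontal cortex, 6.97-fold lower (adjusted p = 0.000233, limma). Robo1 gave 1.34% and 1.24% in depressive and control cerebellum, against 6.33% and 5.92% in depressive and control prefrontal cortex, 4.76-fold lower (log2 difference -2.25, adjusted p = 0.000246, limma), and with normexp its log2 difference was -1.48. Ligands and receptors of this pair of families therefore lay on the same side, with log2 differences between -4.50 and -1.52 and a median of -2.25.

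Netrin genes and their receptors lay on both sides. Ntng1 gave 15.0% and 14.1% in depressive and control cerebellum, against 3.25% and 2.37% in depressive and control prefrontal cortex, a log2 difference of 2.39 ± 0.11 (SE, adjusted p = 0.000712, limma), while its second probe gave 2.12 and normexp 1.76. Netrin-G1 does not act through Dcc or Unc5 receptors. Unc5b gave 28.6% and 33.9% in depressive and control cerebellum, against 6.63% and 5.52% in depressive and control prefrontal cortex (adjusted p = 0.00124, limma). Unc5c, the gene behind the rostral cerebellar malformation of the mouse, gave 66.8% and 69.8% in depressive and control cerebellum, against 23.0% and 19.4% in depressive and control prefrontal cortex, 3.23-fold higher in cerebellum. Unc5a ran the other way, with 21.1% and 22.2% in depressive and control cerebellum, against 60.8% and 62.6% in depressive and control prefrontal cortex, 2.85-fold lower.

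Dcc, the receptor through which netrin-1 attracts axons, gave 0.858% and 0.850% in depressive and control cerebellum, against 5.97% and 5.57% in depressive and control prefrontal cortex, 6.75-fold lower (log2 difference -2.76, adjusted p = 0.000233, limma). With normexp background correction the log2 difference of Dcc was -1.56. The receptors thus split into Unc5b and Unc5c, which were higher in cerebellum, and Dcc and Unc5a, which were lower. Ntn3, a secreted netrin, was not well above background on the depressive cerebellum array, and by its own signal was 10.8-fold lower there than in the depressive cortex pool. In the control pools Ntn3 was measured on both arrays and was 5.94-fold lower in cerebellum. Ntn4, a netrin of basement membranes, gave 2.98% and 1.64% in depressive and control cerebellum, against 3.15% and 3.59% in depressive and control prefrontal cortex, and the difference did not pass the test (adjusted p = 0.140, limma), though it did without the depressive cerebellum array and with normexp background correction (adjusted p = 0.00351 and 0.0128). Ntn1 was well above background only on the control cerebellum array, where it was at least 2.43-fold higher than in the control cortex pool.

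Among Eph receptors, 8 of 9 measured were lower in cerebellum, and Ephb2 alone among those 9 was higher. Ephb6 gave 35.3% and 36.6% in depressive and control cerebellum, against 656% and 716% in depressive and control prefrontal cortex, a log2 difference of -4.25 ± 0.05 (SE, adjusted p = 0.000168, limma). Epha4 gave 41.8% and 49.1% in depressive and control cerebellum, against 518% and 509% in depressive and control prefrontal cortex, a log2 difference of -3.50 ± 0.09 (SE, adjusted p = 0.000275, limma), and its second probe gave -3.41. Both probes of Epha4 thus gave a difference far larger than the spread of the fit.

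Epha5, a receptor that binds ephrin-A ligands, gave 21.8% and 22.1% in depressive and control cerebellum, against 120% on both prefrontal cortex arrays, 5.45-fold lower. Epha7 gave 3.54% and 4.11% in depressive and control cerebellum, against 8.15% and 8.27% in depressive and control prefrontal cortex, 2.15-fold lower. Ephb2, an ephrin-B receptor of synapses, gave 16.5% and 22.3% in depressive and control cerebellum, against 8.02% and 8.71% in depressive and control prefrontal cortex, 2.30-fold higher (adjusted p = 0.00221, limma). Smaller differences below 0 were called for Epha3 (-0.56), Epha2 (-0.53), Ephb4 (-0.45) and Ephb1 (-0.43). The call for Ephb4 was lost without the depressive cerebellum, control cerebellum or depressive prefrontal cortex array (adjusted p = 0.101, 0.122 and 0.0530, limma) and with quantile normalization (adjusted p = 0.0559).

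All 3 ephrin-B genes, whose proteins span the membrane, were called lower in cerebellum, and none of the 3 fitted ephrin-A genes, whose proteins are anchored by a lipid, was called. Efnb3 gave 47.5% and 49.6% in depressive and control cerebellum, against 291% and 315% in depressive and control prefrontal cortex, 6.235-fold lower (adjusted p = 0.000229, limma). Efnb1 gave 2.69% and 2.51% in depressive and control cerebellum, against 8.42% and 7.90% in depressive and control prefrontal cortex, 3.14-fold lower. Efnb2 gave 4.48% and 5.09% in depressive and control cerebellum, against 5.43% and 5.68% in depressive and control prefrontal cortex, a log2 difference of -0.22 (adjusted p = 0.0388, limma), which lost its call without the depressive cerebellum array (adjusted p = 0.200) and without the depressive or the control prefrontal cortex array (adjusted p = 0.139 and 0.234). Scaling to the array median or by quantiles also ended the call of Efnb2 (adjusted p = 0.0919 and 0.113).

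Efna1 gave 27.7% and 26.1% in depressive and control cerebellum, against 30.3% and 27.6% in depressive and control prefrontal cortex (adjusted p = 0.142, limma). Efna4 gave 3.18% and 2.92% in depressive and control cerebellum, against 3.47% and 3.31% in depressive and control prefrontal cortex (adjusted p = 0.0657, limma), and it was called with normexp background correction (adjusted p = 0.0117). Efna2 gave 3.23% and 4.69% in depressive and control cerebellum, against 3.53% and 3.18% in depressive and control prefrontal cortex (adjusted p = 0.373, limma), and its difference was 0.49 without the depressive cerebellum array (adjusted p = 0.0169) and -0.06 without the control cerebellum array. By the brightest probes of these 3 genes, the cerebellum and cortex values overlapped or lay within 1.5-fold of each other. That of Efna2 has 1 spot. The second Efna2 probe, with 2 spots, did not overlap, and its log2 difference was 0.59. It gave 3.61% and 4.19% in depressive and control cerebellum, against 2.75% and 2.43% in depressive and control prefrontal cortex. Efna5 was not well above background on the cerebellum arrays. It was 2.79-fold lower in the depressive cerebellum pool by its own signal, and at least 5.86-fold lower in the control pool.

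**Figure D2:**
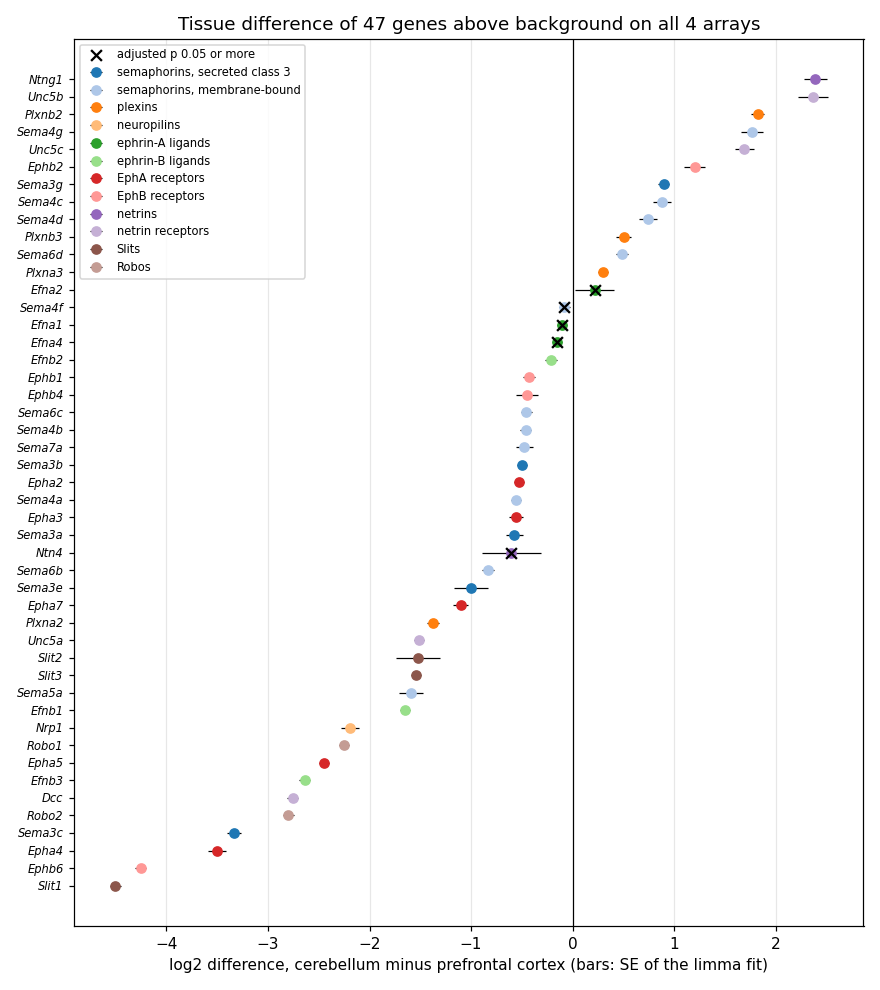
Log2 difference, cerebellum minus prefrontal cortex, of the 47 members well above background on all 4 arrays, coloured by family, with the SE of the limma fit as bars. Crosses mark the members with an adjusted p of 0.05 or more. Slit1 (-4.50) and Ephb6 (-4.25) lie at the lower end, Ntng1 (2.39) and Unc5b (2.36) at the upper end, and 30 of the 42 called members lie below 0.

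Semaphorins were mixed, with 5 called higher and 8 called lower in cerebellum of 14 fitted, leaving out Sema4b and Sema6c, whose probes opposed each other. With the sign of their brightest probe the split of the 16 was 5 higher and 10 lower, and with that of the other probe 7 higher and 8 lower. Sema3c, a secreted class 3 semaphorin, gave 2.18% and 1.73% in depressive and control cerebellum, against 20.8% and 18.5% in depressive and control prefrontal cortex, a log2 difference of -3.34 ± 0.07 (SE, adjusted p = 0.000233, limma), with -3.29 from its second probe and -2.56 with normexp. Sema3e, which binds a plexin without a neuropilin, gave 1.43% and 1.80% in depressive and control cerebellum, against 3.49% and 2.96% in depressive and control prefrontal cortex, 2.0-fold lower. Sema3a, a repellent first known as collapsin, gave 6.93% and 8.49% in depressive and control cerebellum, against 11.3% and 11.6% in depressive and control prefrontal cortex, a log2 difference of -0.57 (adjusted p = 0.00846, limma), and without the control prefrontal cortex array its adjusted p was 0.0534. Sema3g was the 1 class 3 gene higher in cerebellum, by a log2 difference of 0.90 and, on its second probe, 2.16, with 1.53 as the mean over both. Sema3b was lower by a log2 difference of -0.50. Sema3d was 5.86-fold lower in the depressive cerebellum pool, by a signal not well above background, and 4.33-fold lower in the control pool.

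Of 11 membrane-bound semaphorins, 4 were called higher and 4 lower in cerebellum, Sema4f was not called, and Sema4b and Sema6c were called but had probes of opposite sign. With the brightest probe these 2 count as lower (4 higher and 6 lower), and with the other probe's sign as higher (6 higher and 4 lower). Sema4g gave 59.1% and 74.5% in depressive and control cerebellum, against 19.6% and 19.4% in depressive and control prefrontal cortex, 3.4-fold higher (adjusted p = 0.00116, limma). Sema4c gave 14.5% and 17.1% in depressive and control cerebellum, against 8.68% and 8.44% in depressive and control prefrontal cortex, a log2 difference of 0.88. Sema4d, a ligand of B-type plexins, gave 5.24% and 5.90% in depressive and control cerebellum, against 3.44% and 3.22% in depressive and control prefrontal cortex, a log2 difference of 0.74. Class 4 genes were thus on both sides, since Sema4a, with 428% and 439% in depressive and control cerebellum, against 618% and 661% in depressive and control prefrontal cortex, differed by -0.56 on the log2 scale.

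Sema5a, a semaphorin with thrombospondin repeats, gave 8.0% and 10.3% in depressive and control cerebellum, against 27.8% and 27% in depressive and control prefrontal cortex, 3.02-fold lower (adjusted p = 0.00182, limma), and its second probe was 1.83-fold lower. Sema6b gave 207% and 219% in depressive and control cerebellum, against 385% and 376% in depressive and control prefrontal cortex, a log2 difference of -0.84. On the same scale Sema6d differed by 0.49 (0.06 on its second probe), Sema7a, which is anchored by a lipid, by -0.48, and Sema4f by -0.08 without a call. Sema4b and Sema6c could not be given a direction, because their probes disagreed. The brighter Sema4b probe gave a log2 difference of -0.46 and the other 0.95, and the brighter Sema6c probe gave -0.45 and the other 0.81. Of 12 members with several probes well above background on all 4 arrays, these 2 had probes of opposite sign.

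The receptors of the semaphorins did not follow 1 direction either. Nrp1, the neuropilin that binds Sema3a, gave 2.06% and 2.33% in depressive and control cerebellum, against 10.3% and 9.65% in depressive and control prefrontal cortex, 4.56-fold lower (log2 difference -2.19, adjusted p = 0.000595, limma), and -1.59 on the log2 scale with normexp. Plxna2, a plexin that signals with neuropilins, gave 12.8% and 13.3% in depressive and control cerebellum, against 34.3% and 33.4% in depressive and control prefrontal cortex, 2.59-fold lower. Plxnb2, which in the mouse is needed by granule cell precursors of the developing cerebellum, gave 96.0% and 106% in depressive and control cerebellum, against 28.6% and 28.4% in depressive and control prefrontal cortex, 3.53-fold higher (adjusted p = 0.000455, limma). Plxnb3 differed by 0.50 and Plxna3 by 0.30 on the log2 scale. Plxna3 lost its call without the control cerebellum array (adjusted p = 0.130) and without either cortex array (adjusted p = 0.159 without the depressive and 0.0509 without the control array). Of the 4 plexins, 3 were therefore called higher in cerebellum, while Nrp1 was lower.

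A list of 72 other genes of the same pathways held 63 that were well above background on all 4 arrays. Of 16 co-receptors, further ligands and adhesion partners, 6 were called higher and 8 lower in cerebellum, with a median log2 difference of -0.47. Of 47 cytoplasmic effectors, 15 were called higher and 22 lower, with a median of -0.15. Over all 11611 genes fitted, 34.8% were called higher and 38% lower. Ngef, or ephexin, an exchange factor that acts behind Epha4, gave 5.71% and 6.35% in depressive and control cerebellum, against 442% and 443% in depressive and control prefrontal cortex, 73.5-fold lower (adjusted p = 0.000168, limma). Chn1, alpha-chimaerin, a Rac-inactivating protein that also acts behind Epha4, gave 119.7% and 134.3% in depressive and control cerebellum, against 1259% and 1289% in depressive and control prefrontal cortex, 10.04-fold lower. These 2 effectors were printed because their log2 differences were the lowest of the 63. That they lay on the same side as Epha4 was set by that choice.

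Chn2, the beta-chimaerin paralogue of Chn1, ran the other way, with 87.1% and 97.9% in depressive and control cerebellum, against 4.52% and 4.16% in depressive and control prefrontal cortex, 21.3-fold higher (adjusted p = 0.000237, limma). Vav3, an exchange factor for Rac that Eph receptors can engage, gave 92.0% and 77.5% in depressive and control cerebellum, against 12.01% and 10.6% in depressive and control prefrontal cortex, 7.48-fold higher. Further genes higher in cerebellum, with log2 differences, were Ablim3, an actin-binding protein (1.47), Dpysl4, a collapsin response mediator (1.40), Cntn2, an axonal adhesion molecule (1.17), and Nck1, an adaptor (1.02). Further genes lower in cerebellum, again with log2 differences, were Flrt2, a ligand of Unc5 receptors (-2.48), Ptpro, a phosphatase of Eph receptors (-2.30), Pak3, a kinase activated by Rac (-1.84), and Dscaml1, an adhesion molecule (-1.69).

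**Figure D3:**
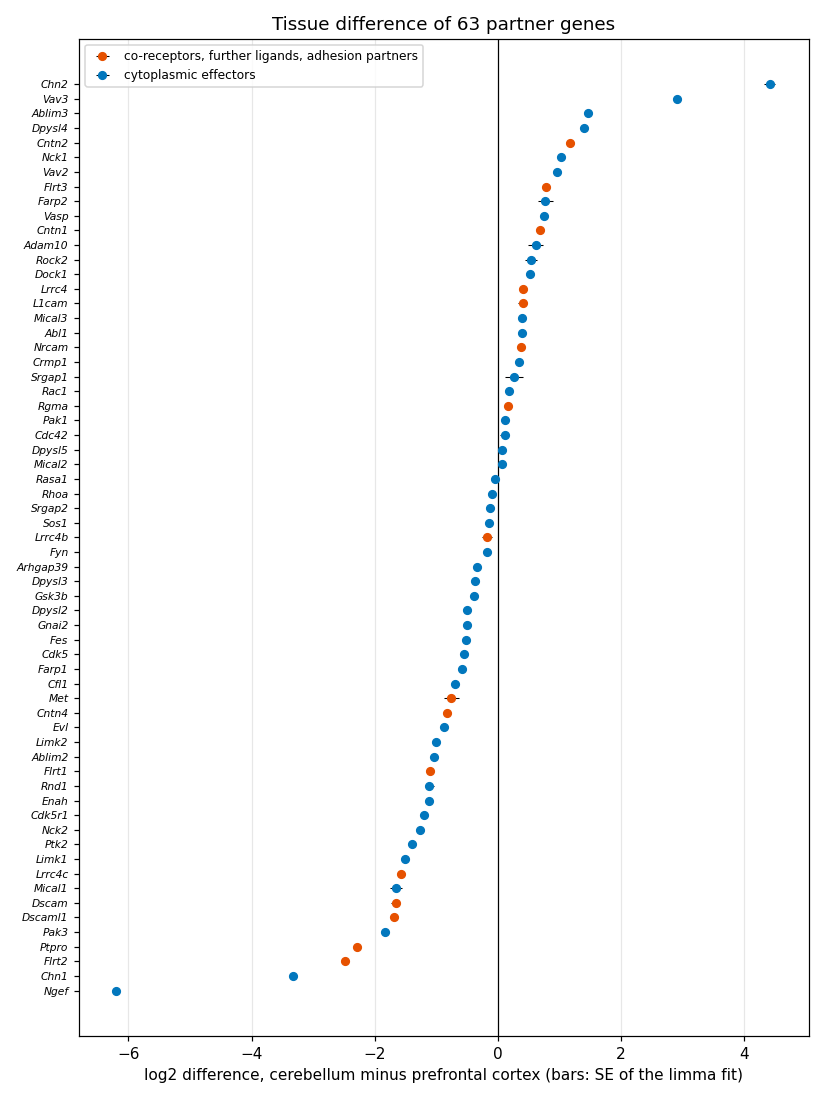
Log2 difference, cerebellum minus prefrontal cortex, of 63 other genes of the guidance pathways, with the SE of the limma fit as bars. Orange points are co-receptors, further ligands and adhesion partners, and blue points are cytoplasmic effectors. Chn2 (4.41) and Vav3 (2.90) stand at the top and Chn1 (-3.33) and Ngef (-6.20) at the bottom.

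The second question was whether the members differ between depressive and control rats within a tissue. With 1 array per group such a difference has no replicate check and no test, and it describes these pools. In the cerebellum, 1 of 50 members (Ntn3) reached 2-fold, where 1.11% of 12669 genes did, and 3 of 50 reached 1.5-fold (Ntn3, Ntn4 and Slit2), where 3.8% did. In the prefrontal cortex, 0 of 50 members reached 2-fold, where 0.788% of 12563 genes did, and 0 of 50 reached 1.5-fold, where 2.72% did. As shares of the members these counts were 2% and 6% in cerebellum and 0% in prefrontal cortex. With scanner files as the records link them, 29 members in cerebellum and 27 in prefrontal cortex reached 2-fold.

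Slit2 was the 1 member at 1.5-fold whose 2 probes ran the same way, as the plot of single spots shows. It gave 39.9% in the depressive cerebellum pool, against 22.6% in the control cerebellum pool, 1.77-fold higher, a log2 ratio of 0.82 ± 0.07 (SE between spots of the same brightness). Its second probe gave 6.50% in the depressive pool, against 3.76% in the control pool, 1.73-fold higher. All 4 spots of both probes gave log2 ratios between 0.78 and 0.85. In the prefrontal cortex the same probe gave 87.6% in the depressive pool and 85.1% in the control pool, a log2 ratio of 0.04.

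Choroid plexus markers were also higher in the depressive cerebellum pool: 10 of 11 lay above 0, with a median log2 ratio of 0.61, and 7 reached 1.5-fold. Otx2 gave 168% in the depressive and 111% in the control pool, and the list's summed signal, most of it from Ttr, was 18752% in the depressive and 18668% in the control pool. Meningeal markers lay above 0 for 9 of 12, with a median of 0.11, and blood cell markers for 6 of 7, with a median of 1.499. Anterior pituitary markers lay below 0 for 6 of 8, with a median of -0.61, and summed to 39.3% in the depressive and 71.6% in the control pool. Gh1, growth hormone, gave 0.163%, not well above background, in the depressive and 21.9% in the control pool, at least 63.1-fold lower, and Prl, prolactin, was at least 18.6-fold lower. The part of these cells in the Slit2, Ntn3 and Ntn4 ratios was not tested.

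Ntn4 gave 2.98% in the depressive cerebellum pool, against 1.64% in the control cerebellum pool, 1.82-fold higher, a log2 ratio of 0.86 ± 0.45 (SE). It rests on 1 spot, and the second probe gave 0.561%, not well above background, in the depressive pool, against 0.755% in the control pool. The 2 probes thus ran in opposite directions. Ntn3 gave 0.384%, not well above background, in the depressive cerebellum pool, against 0.812% in the control cerebellum pool, 2.11-fold lower by the probe's own signal. The 2 spots of Ntn3 gave log2 ratios of -0.67 and -1.49. With normexp background correction the log2 ratio of Ntn3 was -0.31 and that of Ntn4 0.34.

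**Figure D4:**
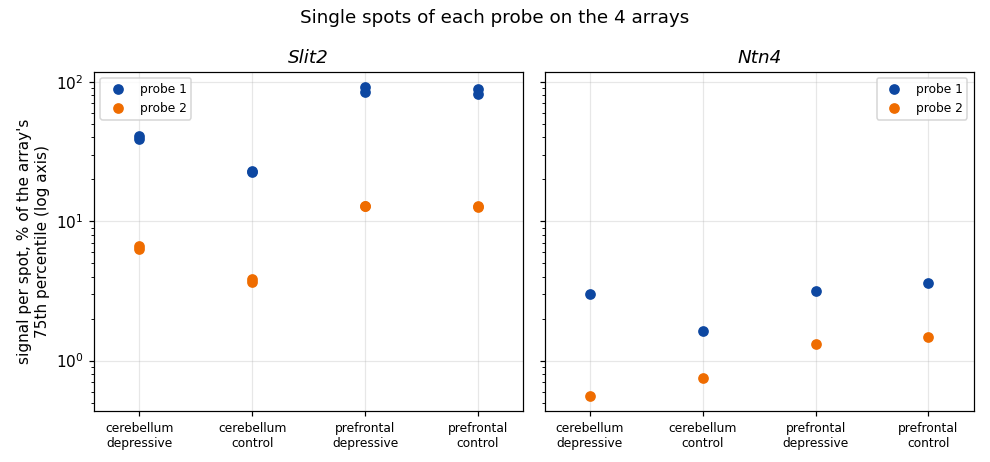
Signal of single spots of the 2 Slit2 probes (left) and the 2 Ntn4 probes (right) on the 4 arrays, as percent of the array's 75th percentile on a log axis. Both Slit2 probes lie higher on the depressive than on the control cerebellum array (39.9% against 22.6% and 6.50% against 3.76%), and level on the cortex arrays, whereas the Ntn4 probes run in opposite directions in cerebellum.

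The other members moved little. In the cerebellum 14 of 50 log2 ratios lay above 0 and 36 below, with a median of -0.08, against 4938 above and 7590 below with a median of -0.03 over all genes. Cerebellum markers lay below 0 there for 16 of 16, with a median of -0.11, and cerebral cortex markers for 7 of 13. Oligodendrocyte markers did for 7 of 12, endothelial and mural markers for 6 of 12, and astrocyte markers for 4 of 9. Microglial markers lay above 0 for 10 of 12, with a median of 0.11. The part of these cells in the members' ratios was not tested. By their brightest probes all 11 membrane-bound semaphorins (-0.36 to -0.0028) and all 4 plexins (-0.17 to -0.03) lay below 0 there, but the second probes of Sema4b (0.11) and Sema6d (0.12) lay above 0. The Eph receptor Ephb2 gave 16.5% in the depressive and 22.3% in the control cerebellum pool, a log2 ratio of -0.44 ± 0.11 (SE between spots), and Sema5a gave 8.0% in the depressive and 10.3% in the control pool, -0.36 ± 0.14. Efna2 gave -0.54 ± 0.41 and, on its second probe, -0.21. Only spots, and not pools, stand behind these errors.

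In the prefrontal cortex 28 of 50 ratios lay above 0 and 22 below, with a median of 0.02, against -0.01 over all genes. With normexp the members' median there was -0.01. Ntng1 gave 3.25% in the depressive and 2.37% in the control cortex pool, a log2 ratio of 0.46 ± 0.21 (SE between spots), but its second probe gave -0.34. Unc5c gave 0.24 and, on its second probe, -0.20. Ephb4 gave 0.40 ± 0.25 and Unc5b 0.26, each from 1 probe, and Epha3 (-0.28) was the lowest of the 50. Of 12 members with several probes well above background on all 4 arrays, 8 had state ratios of opposite sign between probes in prefrontal cortex, and 4 in cerebellum. Meningeal markers lay above 0 for 12 of 12 in the depressive cortex pool, with a median of 0.71 and summed signals of 4383% in the depressive and 2384% in the control pool. Oligodendrocyte markers lay above 0 for 12 of 12, with a median of 0.30, and blood cell markers for 5 of 7, with a median of 1.04 and 4 at 2-fold. Cerebellum markers lay below 0 for 10 of 14 there, with a median of -0.13 and 3 at 2-fold. Choroid plexus markers did for 5 of 8, with a median of -0.55 and 4 at 2-fold. Their part in the members' ratios was not tested.

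**Figure D5:**
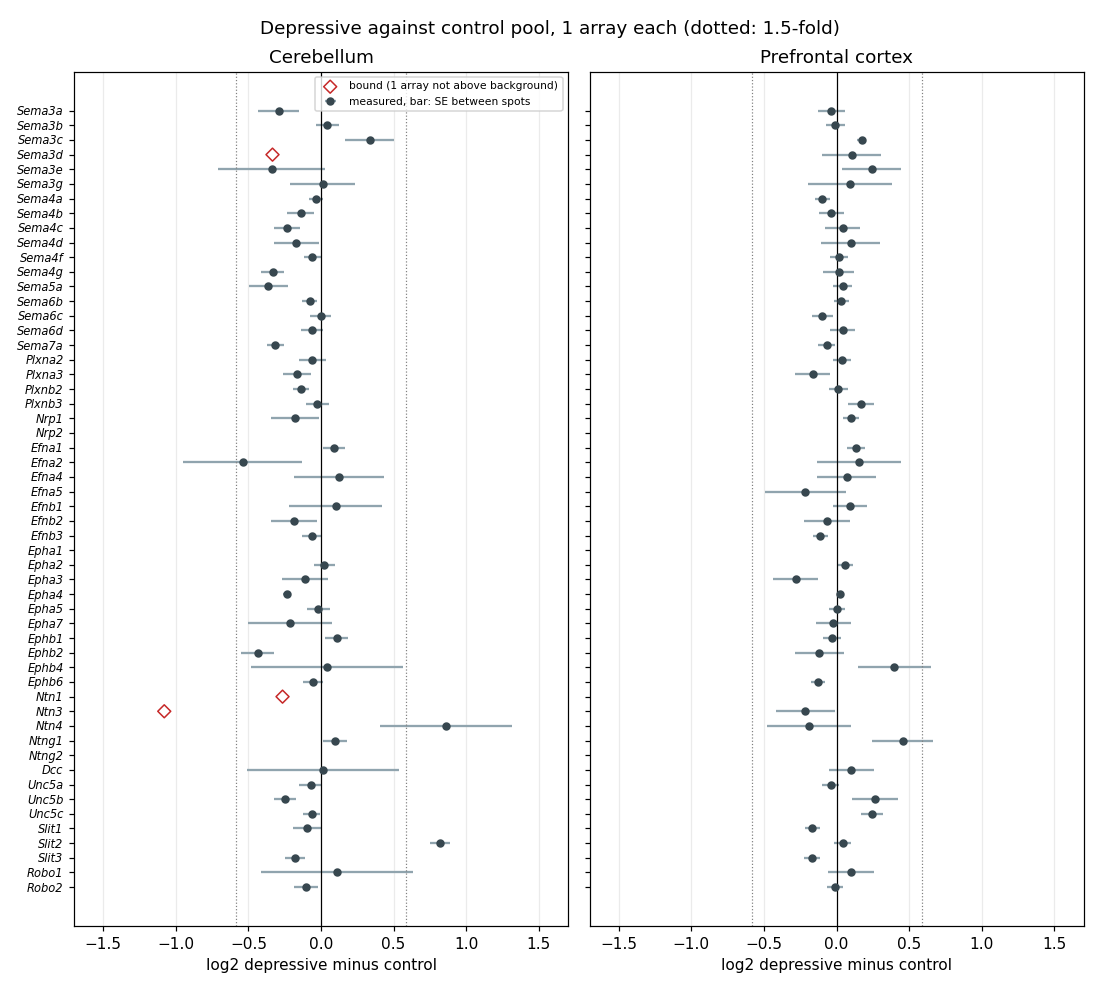
Log2 ratio, depressive over control pool, of each member in cerebellum (left) and prefrontal cortex (right), 1 array per pool, with the SE between spots of the same brightness as bars. Diamonds are bounds where 1 array was not well above background, and dotted lines mark 1.5-fold. Slit2 (0.82), Ntn4 (0.86) and Ntn3 (-1.08) lie beyond the lines in cerebellum, and 0 members do in prefrontal cortex.

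Across both tissues, a limma fit of state with tissue as a block called 0 of 47 members and 0% of the 11611 genes fitted at an adjusted p under 0.05. This fit took the tissues as replicates of the state, with 1 residual degree of freedom. Its p-values therefore do not measure the spread between rats either. At an unadjusted p under 0.05 were 904 of the 11611 genes and 3 of the 47 members. These were Sema3c with a log2 difference of 0.25, Plxna3 with -0.17 and Slit3 with -0.17, each with an adjusted p of 0.638 (limma). The second probe of Sema3c gave 0.40 in cerebellum and -0.05 in prefrontal cortex. With an intensity trend and a robust prior, limma called 0 members as well. Between the tissues, 20 of 49 members had state ratios of opposite sign, as did 5149 of 12190 genes, and for 0 members did both ratios exceed 2 SE between spots in opposite directions. None of the 63 pathway partners reached 1.5-fold between states, and their log2 ratios ran from -0.29 to 0.25 in cerebellum for the effectors and from -0.22 to 0.04 for the co-receptors and ligands. In prefrontal cortex they ran from -0.21 to 0.29 for the effectors and from -0.16 to 0.39 for the co-receptors and ligands.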

How the data were processed

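Per the file headers, Agilent Feature Extraction 10.7.1.1 turned each scan into a background-subtracted intensity per spot, which is what the deposited scanner files hold. The authors' deposited value table, used as an alternative, lists intensity for 23207 probes. Its scaling was not stated in the sources.

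Control spots and outlier flags were left out, repeated spots were averaged as log2 intensity, and the array's 75th percentile was subtracted. Of 30367 probes, 18347 were named through RefSeq accessions (GRCr8), giving 15437 genes; the brightest probe stood for a gene. A probe was taken as well above background where the scanner file flagged 50% or more of its spots as such. A ratio with 1 array not well above background is called a bound. It was taken against the lowest signal well above background or the probe's own, whichever was higher. Arrays were grouped by title, and scanner files were tied to samples through the value table, a choice made with the data seen; on depressive samples the description names the other tissue. limma 3.58.1 in R 4.3.3 fitted tissue and state with Benjamini-Hochberg adjustment over the genes detected on all 4 arrays, and was tested on simulated data. The SE between spots comes from repeated spots in 20 brightness bins. The number of arrays limits the precision.

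Alternatives were normexp (offset 50, on the median signal, since the files hold no mean signal), array median and quantile scaling, probe means, other filters, the value table, other fits and arrays left out. Values per array, or log2 differences alone, were printed for up to 3 members per family with the largest tissue difference in each direction. The same holds for members at 1.5-fold between states, members whose probes disagree, and up to 6 partners in each direction. Members, lists and tests were chosen with earlier results of these data known.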

Additional observations from a re-analysis of the deposited data

How the results depend on the processing

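With 1 array per group, state ratios have no test, tissue p-values rest on 1 residual degree of freedom, and weak genes are limited by signal over background. Tissue calls numbered 39 to 44 under the other processing settings, and 38 to 42 when an array was left out. The members' median tissue difference was -0.46 with normexp, -0.45 with the array median, -0.44 with quantile normalization, -0.50 with probe means, -0.55 without a filter, -0.49 in the value table, and -0.53 to -0.51 with an array left out. Quantile normalization moved the median of all genes by 0.11, to 0.09, so that differences there are relative to that shift, and 12 members were called higher and 28 lower. Members at 2-fold between states in cerebellum numbered 0 with normexp, with quantile normalization, in the value table, and with genes well above background on all 4 arrays, 2 without a filter and 3 at 1.5-fold; in prefrontal cortex 1 was counted without a filter. With Unc50 and Unc5cl, a choice made after seeing the data, 43 of 48 were called. Of 468 values of 39 named members, 443 kept direction and call, 19 lost the call and 5 gained it. The difference of Efna2 ranged from -0.055 to 0.486 with an array left out, being below 0 without the control cerebellum array; the cause was not tested.

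With scanner files as the records link them, tissue calls and 2-fold tissue differences in both states numbered 0, the median tissue difference was 0.040, state calls numbered 42, members at 2-fold between states 29 in cerebellum and 27 in prefrontal cortex, and the median state ratios were 0.53 and 0.57. This setting exchanges a cerebellum with a cortex array. Tissue differences then changed sign for 22 of 39 named members: Efnb2 (0.13), Efnb3 (0.088), Epha4 (0.10), Epha5 (0.010), Epha7 (0.12), Ephb6 (0.091), Nrp1 (0.040), Ntng1 (-0.28), Plxna2 (0.011), Plxnb3 (-0.070), Robo2 (0.058), Sema3a (0.17), Sema3e (0.050), Sema3g (-0.052), Sema4a (0.067), Sema5a (0.16), Sema6b (0.023), Slit1 (0.13), Slit3 (0.17), Unc5a (0.057), Unc5b (-0.0080) and Unc5c (-0.090). The state ratio of Ntn3 was 2.57.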
